A study of Homo sapiens with 8 samples.

Results

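Cullin-RING ligases are the largest family of ubiquitin ligases, and the genes described here encode their scaffolds, their shared subunits and the machinery that switches them on and off. The members are a list of 44 gene symbols, chosen by role and with no threshold on a measured value, and each was matched to a row of a table of 23459 genes. They are 8 cullins, 2 RING subunits, DDB1 and its partner DDA1, 12 substrate receptors that dock on DDB1 (the DCAF genes and DTL), 8 genes of neddylation, 3 genes of exchange and inhibition, and 9 subunits of the COP9 signalosome. RNA was measured in Hct116 cells, an established human colorectal carcinoma line, after 16 h with 30 µM lenalidomide (4 libraries) or with a matching amount of its solvent DMSO (4 libraries). Both treatments were given to cells of this line with no engineered change, so the values describe 1 line, 1 dose and 1 time. By the study's methods, treatment began as the cells were moved to medium with isotope-labelled amino acids, and 2 of 4 replicates were label swaps. The labels do not tell which libraries these are, so the spread within a treatment may include that difference in medium. The series calls the replicates biological and the methods call them technical, so that p-values measure the spread between these libraries, which may be technical.

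In a cullin-RING ligase, a cullin binds a RING protein at one end, which recruits a ubiquitin-loaded E2 enzyme, and an adaptor with a substrate receptor at the other. CUL4A and CUL4B use DDB1 as adaptor, and one of the receptors that dock on DDB1 is CRBN, the protein to which lenalidomide binds. Ligases are switched on when the ubiquitin-like protein NEDD8 is joined to the cullin, and switched off when the COP9 signalosome removes it. CAND1 then exchanges the receptors on cullins without NEDD8. The comparison asked whether RNA of this ligase system, CRBN itself left out of the members, differed between cells with lenalidomide and cells with DMSO.

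Lenalidomide was not accompanied by a detectable change in RNA of any of these genes. Of 44 members, 43 had enough counts to be tested, and the quasi-likelihood test of edgeR put 0 of the 43 below a p of 0.05 after Benjamini-Hochberg adjustment across 13925 genes, of which 2 (0.0144%) passed. The smallest adjusted p of a member was 0.999. At an unadjusted p under 0.05 there were 3 members, DCAF10 above and RBX1 and COPS7A below the DMSO level, beside 3.26% of all genes tested above and 0.919% below. DESeq2 and edgeR's likelihood ratio test also gave 0 members at an adjusted p under 0.05. The values are shares of the RNA of a whole culture, in which fewer cells expressing a gene and less RNA per cell cannot be told apart.

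The intervals show how large a change these libraries leave room for. In 39 of the 43 members the 95% interval of the log2 fold change (lenalidomide against DMSO) lay inside -0.25 to 0.25, compared with 56.3% of all genes tested. The shares were not matched for counts, on which the width of an interval depends. Tested members had 152 counts or more in every library, while the filter had a minimum count of 10. The members outside were CUL9, RBX1, DCAF10 and COPS4. Over all 43, the lower ends reached -0.35 (RBX1) and the upper ends 0.41 (DCAF10). The fitted change was under 10% in size in 40 members and under 5% in 34. The median coefficient of variation between replicates beyond counting error was 6.27% over the members and 7.41% over all genes tested. The median log2 fold change of the members was -0.032, against 0.0025 over all genes tested, and 14 members lay above 0 and 29 below, where 51.3% of all genes lay above 0. The plot of log2 fold changes shows every tested member.

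**Figure D1:**
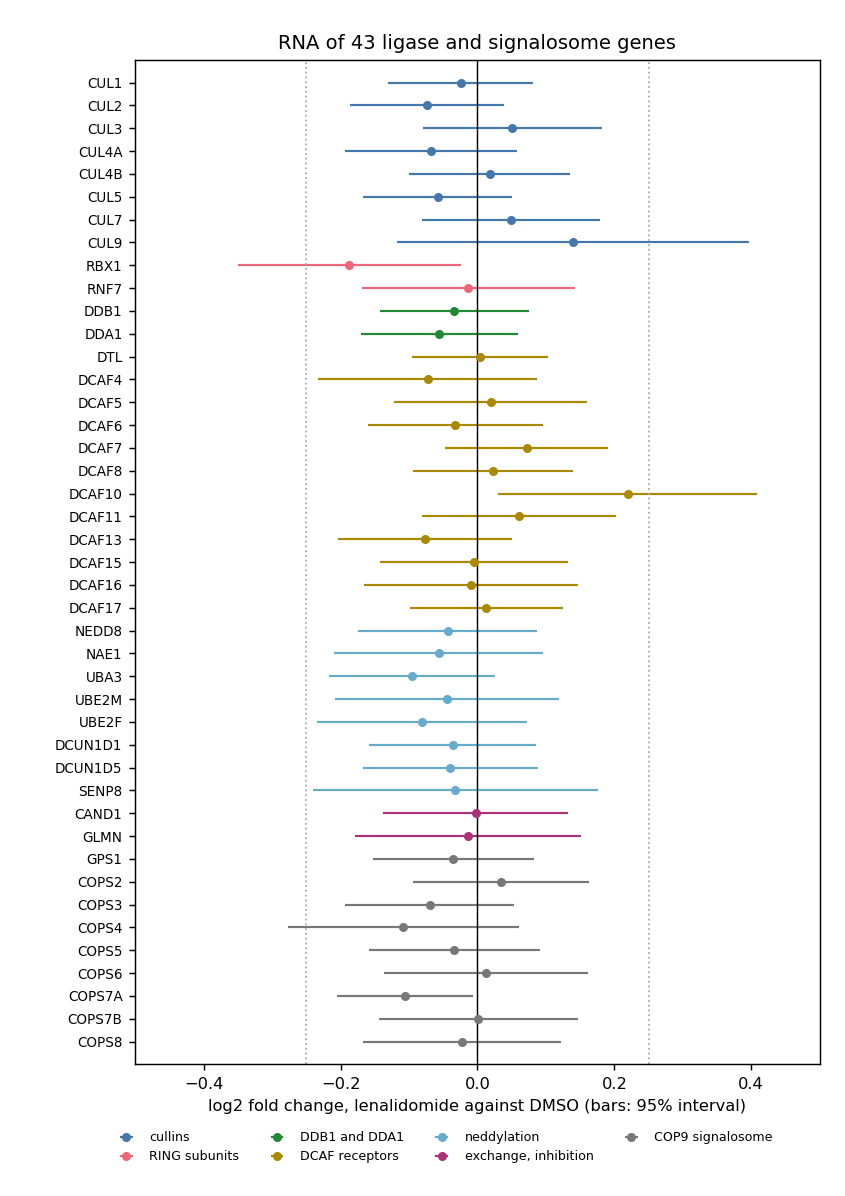
Log2 fold change of lenalidomide against DMSO (horizontal axis) for the 43 members tested, with points coloured by role, bars for the 95% interval and dotted lines at -0.25 and 0.25. Intervals of 39 members lie between the dotted lines, and those of RBX1, COPS7A and DCAF10 leave out 0 before adjustment.

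The libraries held 28218471 to 37473413 counts, every lenalidomide library fewer than every DMSO library, and TMM scaling factors were 0.971 to 1.02. The members took up 0.450 to 0.471% of the counts in each library. The epithelial character of the cells was checked with epithelial markers, which do not identify the line. The 8 markers summed to 2295 to 2596 CPM (counts scaled to a common library size with TMM factors) with DMSO and 2221 to 2553 CPM with lenalidomide, mostly from KRT19, EPCAM, KRT8 and KRT18, while VIL1 and CEACAM5 were at 2 counts or fewer in every library. CDX2 had the largest log2 fold change of this list, -0.061 (SE 0.094). A list of 10 markers of other cell types (blood, endothelium, fibroblast, muscle, liver, nerve) summed to 5.13 to 5.86 CPM with DMSO and 5.26 to 6.73 CPM with lenalidomide, and 3 of them had enough counts to be tested, DES differing most with 0.18 (SE 0.23).

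Levels between genes were compared per length, as RPKM (CPM per kilobase of exonic width), and here RNA of the ligase system covered a wide range. The highest member, DCAF13, was 47.8-fold above the lowest tested member, SENP8. Means over the 8 libraries were above 20 RPKM in 26 members and under 5 RPKM in 7, CAND2 included. The plot of levels per length gives the order.

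**Figure D2:**
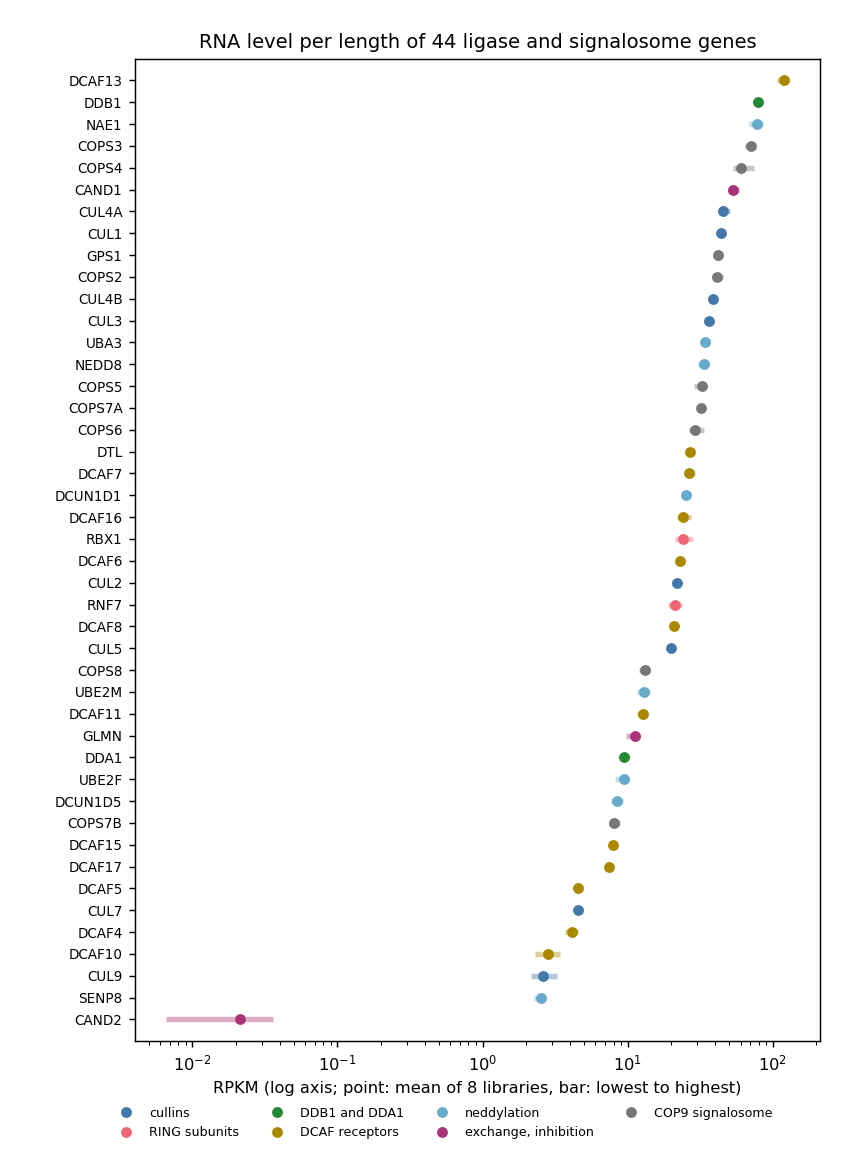
RPKM of the 44 members on a log axis, ordered by level, with points for the mean of 8 libraries coloured by role and bars from the lowest to the highest library. DCAF13 stands at the top with 120.4 RPKM, SENP8 is the lowest tested member with 2.52 RPKM, and CAND2 lies apart near 0.

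Among the scaffolds, CUL4A and CUL1 had the highest levels per length, with means of 45.5 and 43.8 RPKM. CUL4B followed with 38.5 RPKM and CUL3, the scaffold of ligases with BTB-domain receptors, with 36.6 RPKM. CUL2 and CUL5, which work with elongin adaptors, were lower with 21.9 and 19.8 RPKM. The large atypical cullins were lowest, CUL7 with 4.51 RPKM and CUL9, a p53-binding protein, with 2.62 RPKM. The 8 cullins had log2 fold changes between -0.073 and 0.14 with a median of -0.0032, 4 above 0 and 4 below.

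CUL4A, the cullin of the ligase that CRBN joins, was at 188, 173, 202 and 181 CPM in DMSO replicates 1 to 4 and at 173, 178, 188 and 171 CPM in lenalidomide replicates 1 to 4. The DMSO mean was 186 ± 12.1 CPM (SD, n = 4), and that of the lenalidomide libraries 178 ± 7.76 CPM (SD, n = 4). The treatments overlapped, and the log2 fold change was -0.067 (SE 0.058, 95% interval -0.19 to 0.058), or -0.030 without DMSO replicate 3. Its paralogue CUL4B, encoded on the X chromosome, was at 219, 213, 215 and 223 CPM with DMSO and at 213, 227, 235 and 206 CPM with lenalidomide. The lenalidomide libraries of CUL4B lay on both sides of the DMSO libraries, with a log2 fold change of 0.018 (SE 0.055, 95% interval -0.10 to 0.14). Exons of CUL4A overlap those of PCID2 on the other strand in GENCODE annotation.

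CUL9 had the largest difference among the cullins, and it rested on a pair of libraries. With DMSO it was at 22.1, 20.9, 23.0 and 21.8 CPM, and with lenalidomide at 28.8, 20.3, 18.9 and 28.9 CPM. Lenalidomide replicates 1 and 4 were above all DMSO libraries and replicates 2 and 3 below them. The log2 fold change was 0.14 (SE 0.12, 95% interval -0.12 to 0.40). Without lenalidomide replicate 1 or without lenalidomide replicate 4 it was 0.045, and without replicate 2 or 3 it was 0.21 or 0.24.

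The RING subunits bring the E2 enzyme to the cullin. RBX1 serves CUL1 to CUL4B, while RNF7 (also called RBX2) serves CUL5. RBX1 was at 22.3, 24.4, 20.5 and 25.5 CPM with DMSO and at 21.2, 19.7, 21.5 and 19.1 CPM with lenalidomide, 552 to 965 counts per library. Lenalidomide replicates 1 and 3 lay above DMSO replicate 3, so the treatments overlapped. The log2 fold change was -0.19 (SE 0.076, 95% interval -0.35 to -0.024), which is a change of -12.2% with an interval from -21.5% to -1.65%. The unadjusted p of the quasi-likelihood test was 0.027 and the adjusted p 0.999. A two-sided exact permutation test of RBX1 alone gave p = 0.0857, where 4 libraries against 4 cannot go below 0.0286. RNF7 averaged 48.6 ± 3.95 CPM (SD, n = 4) in the DMSO libraries, against 48.1 ± 4.02 CPM (SD, n = 4) in the lenalidomide libraries. Per length RBX1 had 24.0 and RNF7 21.4 RPKM.

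DDB1, the adaptor of CUL4 ligases, was the second most abundant member per length with 79.6 RPKM. It was at 456, 443, 461 and 452 CPM with DMSO and at 445, 457, 443 and 425 CPM with lenalidomide. The treatments overlapped, lenalidomide replicate 4 was below all others, and the log2 fold change was -0.034 (SE 0.051, 95% interval -0.14 to 0.075), or -0.015 without that library. Its exons overlap those of TKFC on the other strand. DDA1, a small DDB1-binding protein, was at 39.6, 41.6, 38.5 and 37.9 CPM with DMSO and at 38.8, 38.9, 37.01 and 36.9 CPM with lenalidomide. Its log2 fold change was -0.056 (SE 0.054, 95% interval -0.17 to 0.059), with overlapping treatments, and -0.028 without DMSO replicate 2. CRBN, which is no member, had a log2 fold change of -0.035 (SE 0.065, 95% interval -0.17 to 0.10) with a DMSO mean of 25.6 ± 1.83 CPM (SD, n = 4).

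**Figure D3:**
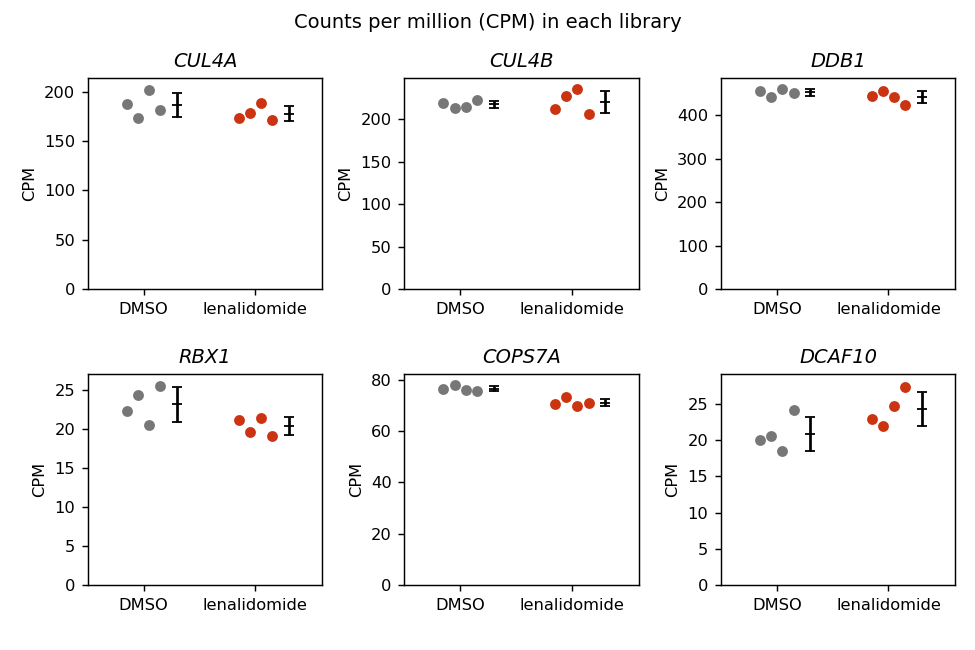
CPM (vertical axes, from 0) of CUL4A, CUL4B, DDB1, RBX1, COPS7A and DCAF10 in each library, grey for DMSO and red for lenalidomide, with a black bar for mean and SD of 4 libraries. Of these 6 genes, COPS7A is the only one without overlap, 75.8 to 78.0 CPM with DMSO and 69.7 to 73.2 CPM with lenalidomide.

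The receptors that dock on DDB1 ran from 2.82 to 120.4 RPKM. DCAF13, a receptor that also acts in processing of ribosomal RNA, had the highest level of all members. DTL (also called CDT2), which targets the replication licensing factor CDT1 for destruction, had 27.0 RPKM and DCAF7 26.6 RPKM. DCAF16, DCAF6 and DCAF8 had 24.1, 23.1 and 20.9 RPKM. DCAF11 had 12.7 RPKM, DCAF15, the receptor hijacked by the sulfonamide indisulam, 7.97 RPKM, and DCAF17 7.45 RPKM. DCAF5, DCAF4 and DCAF10 were lowest with 4.57, 4.13 and 2.82 RPKM. Of the 12 receptors 7 had a log2 fold change above 0 and 5 below, with a median of 0.0085.

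DCAF10 had the largest log2 fold change of all members. It was at 20.1, 20.6, 18.5 and 24.1 CPM with DMSO and at 23.0, 22.0, 24.8 and 27.4 CPM with lenalidomide. DMSO replicate 4 lay above lenalidomide replicates 1 and 2, so the treatments overlapped. The log2 fold change was 0.22 (SE 0.088, 95% interval 0.030 to 0.41), which is a change of 16.4% with an interval from 2.13% to 32.7%. The unadjusted p of the quasi-likelihood test was 0.026 and the adjusted p 0.999, and the exact permutation test gave p = 0.0857. Its exons overlap those of EXOSC3 on the other strand. DCAF13 was at 327, 339, 309 and 331 CPM with DMSO and at 304, 328, 322 and 283 CPM with lenalidomide. Lenalidomide replicates 1 and 4 of DCAF13 were below all DMSO libraries, and the log2 fold change was -0.077 (SE 0.059, 95% interval -0.20 to 0.050), or -0.037 without lenalidomide replicate 4.

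Neddylation runs from NEDD8 through its activating enzyme, a pair of NAE1 and UBA3, to the E2 enzymes UBE2M and UBE2F, with DCUN1D1 and DCUN1D5 helping the transfer to the cullin. SENP8 processes the NEDD8 precursor. NAE1 had the highest level per length, 77.9 RPKM, followed by UBA3 with 33.9 and NEDD8 with 33.4 RPKM. DCUN1D1 had 25.4, UBE2M 12.9, UBE2F 9.42, DCUN1D5 8.49 and SENP8 2.52 RPKM. All 8 genes had a log2 fold change below 0, between -0.095 and -0.032 with a median of -0.044, and 0 had an unadjusted p under 0.05. All 8 intervals lay inside -0.25 to 0.25. The count was 8 of 8 under every other scaling, test and filter run, and 7 of 8 without DMSO replicate 4, without lenalidomide replicate 1 or without lenalidomide replicate 4. NEDD8 shares exons with the read-through gene NEDD8-MDP1, which has a row of its own with 2368 to 3462 counts per library against 2539 to 3600 for NEDD8, so the NEDD8 value is uncertain. UBE2F likewise shares exons with UBE2F-SCLY.

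UBA3, the catalytic subunit of the NEDD8-activating enzyme, differed most in this group. It was at 78.8, 76.8, 67.6 and 73.7 CPM with DMSO and at 69.0, 67.5, 72.1 and 69.2 CPM with lenalidomide. DMSO replicate 3 lay among the lenalidomide libraries, and the log2 fold change was -0.095 (SE 0.057, 95% interval -0.22 to 0.026). Its regulatory partner NAE1 was at 217, 224, 190.0 and 198 CPM with DMSO and at 202, 219.8, 196 and 178 CPM with lenalidomide. The treatments overlapped widely, with a log2 fold change of -0.057 (SE 0.071, 95% interval -0.21 to 0.096) that lay between -0.11 (without lenalidomide replicate 2) and -0.0074 (without lenalidomide replicate 4).

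CAND1, the exchange factor, was at 313, 321, 291 and 332 CPM with DMSO and at 298, 297, 344 and 316 CPM with lenalidomide. Its log2 fold change was -0.0025 (SE 0.063, 95% interval -0.14 to 0.13), and its level of 53.1 RPKM was above that of every cullin. CAND2, its paralogue, had 1 to 6 counts per library and was below the filter on low counts. GLMN, which binds RBX1 and inhibits it, was at 23.1, 24.3, 21.2 and 22.9 CPM with DMSO and at 21.5, 24.6, 24.5 and 19.9 CPM with lenalidomide. Lenalidomide libraries of GLMN lay on both sides of the DMSO libraries, with a log2 fold change of -0.014 (SE 0.077, 95% interval -0.18 to 0.15).

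The COP9 signalosome removes NEDD8 from cullins, and the RNA per length of its 9 genes differed 8.85-fold, from COPS3 to COPS7B. COPS3 had 71.0 RPKM, COPS4 60.4, GPS1 (subunit 1) 42.1 and COPS2 41.0 RPKM. COPS5, the catalytic subunit, had 32.3, COPS7A 32.0 and COPS6, the partner of COPS5, 29.0 RPKM. COPS8 had 13.1 and COPS7B 8.02 RPKM. Of the 9 genes 3 lay above 0 and 6 below, with a median log2 fold change of -0.034.

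COPS7A was the 1 member whose treatments did not overlap, where 1.24% of all genes tested did not overlap with lenalidomide higher and 0.84% with lenalidomide lower. It was at 76.3, 78.0, 76.2 and 75.8 CPM with DMSO and at 70.7, 73.2, 69.7 and 70.9 CPM with lenalidomide. The means were 76.6 ± 1.003 CPM (SD, n = 4) and 71.1 ± 1.45 CPM (SD, n = 4), and the spread between replicates was small in both treatments. The log2 fold change was -0.11 (SE 0.046, 95% interval -0.21 to -0.0064), a change of -7.09% with an interval from -13.3% to -0.443%. The unadjusted p of the quasi-likelihood test was 0.039 and the adjusted p 0.999. The exact permutation test gave p = 0.0286, the smallest p that 4 libraries against 4 allow. Any gene without overlap gets this p, so it adds nothing to the lack of overlap. COPS7A shares no annotated exon with another gene.

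COPS4 had the largest log2 fold change of the signalosome genes, and 1 library decided its size. It was at 102, 106, 129 and 101 CPM with DMSO and at 101, 109.9, 102 and 93.3 CPM with lenalidomide, DMSO replicate 3 being above all others. The log2 fold change was -0.11 (SE 0.078, 95% interval -0.28 to 0.060) and -0.022 without DMSO replicate 3 or -0.069 without lenalidomide replicate 4. COPS3 was at 147, 156, 144 and 156 CPM with DMSO and at 138, 151, 152 and 134 CPM with lenalidomide. Its log2 fold change was -0.070 (SE 0.057, 95% interval -0.19 to 0.054), with lenalidomide replicates 1 and 4 below all DMSO libraries, and it was -0.037 without lenalidomide replicate 4. COPS5 was at 129, 134, 130.4 and 131 CPM with DMSO and at 126, 134, 137 and 115 CPM with lenalidomide. Its treatments overlapped, with a log2 fold change of -0.034 (SE 0.058, 95% interval -0.16 to 0.091) that was 0.013 without lenalidomide replicate 4. Exons of COPS5 overlap those of PPP1R42 on the same strand and of CSPP1 on the other.

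The windows upstream of the 3 genes with an unadjusted p under 0.05 are shown because they are the members whose RNA differed most against its spread. RBX1 (Entrez gene 9978) lies at chr22:41347351-41369313 on GRCh37, COPS7A (Entrez gene 50813) at chr12:6833180-6841041 and DCAF10 (Entrez gene 79269) at chr9:37800551-37867663, all on the plus strand. The windows are the 250 bases before the start in RefSeq (GRCh38.p14), on the plus strand, with matches to 3 promoter motifs in capitals. The gene positions are from GENCODE, so a window before a RefSeq start need not lie outside them. The motifs were a CCAAT box (CCAAT), a GC box (GGGGCGGGG, or its reverse complement) and an ETS core (CCGGAAG), searched on both strands.
RBX1, chr22:40951128-40951377, GC box in capitals: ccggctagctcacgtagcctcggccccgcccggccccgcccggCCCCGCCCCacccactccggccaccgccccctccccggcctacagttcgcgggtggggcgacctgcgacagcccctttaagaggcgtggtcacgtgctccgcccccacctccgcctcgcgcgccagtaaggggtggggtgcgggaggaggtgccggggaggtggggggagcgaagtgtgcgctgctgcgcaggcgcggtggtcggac
COPS7A, chr12:6723796-6724045, CCAAT box and then ETS core in capitals: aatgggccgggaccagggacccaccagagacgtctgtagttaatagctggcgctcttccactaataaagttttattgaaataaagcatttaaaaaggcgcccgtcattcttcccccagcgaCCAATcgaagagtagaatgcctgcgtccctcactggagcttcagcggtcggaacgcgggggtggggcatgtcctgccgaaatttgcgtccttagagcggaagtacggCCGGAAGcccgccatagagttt
DCAF10, chr9:37800547-37800796, ETS core in capitals: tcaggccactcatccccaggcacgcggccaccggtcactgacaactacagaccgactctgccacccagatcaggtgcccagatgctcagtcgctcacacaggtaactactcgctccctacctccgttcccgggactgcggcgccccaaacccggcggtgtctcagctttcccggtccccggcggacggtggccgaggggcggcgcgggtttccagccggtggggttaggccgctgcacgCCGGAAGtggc

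The 3 windows share no motif among these letters beyond the ETS core of COPS7A and DCAF10. COPS7A has another listed start, whose window holds none of the motifs. Of the 44 members 40 had a window in RefSeq, and the GC box was found in 19 of them (47.5%), beside 15.1% of 35116 windows in all and 32.3% of 10849 genes tested. The CCAAT box was in 18 members (45%), beside 32.0% of all windows and 41.8% of the genes tested. The ETS core was in 11 members (27.5%), beside 8.52% of all windows and 18.8% of the genes tested. The TATA box (TATAAA) was in 0 of 40 members, beside 10.7% of all windows and 8.07% of the genes tested. Members and genes tested were counted if any of their windows held the motif, while the share of all windows is per window. A match is a description of the letters in the window, and the motifs were chosen with these shares known.

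The balance between paralogues and partners was followed in 8 pairs, as the log2 ratio of counts per length within a library, which does not depend on library size. CUL4A to CUL4B was 0.28, 0.21, 0.42 and 0.21 with DMSO and 0.21, 0.16, 0.19 and 0.24 with lenalidomide. Per length CUL4A was thus the higher of the pair in 8 of 8 libraries, while CUL4B had the higher CPM in each. RBX1 to RNF7 was 0.23, 0.30, -0.057 and 0.54 with DMSO and 0.14, -0.11, 0.15 and 0.15 with lenalidomide. In both pairs the treatments overlapped, with exact permutation p of 0.171 and 0.286 (two-sided). COPS7A to COPS7B had a mean log2 ratio of 2.05 ± 0.079 (SD, n = 4) with DMSO and 1.95 ± 0.13 (SD, n = 4) with lenalidomide, which is 4.15-fold and 3.85-fold, with an exact permutation p of 0.257. NAE1 was 2.27-fold above UBA3 with DMSO and 2.33-fold with lenalidomide, and DCUN1D1 2.99-fold and 3.004-fold above DCUN1D5. Before division by length DCUN1D5 was the higher, 110.5 against 81.2 CPM with DMSO. The order per length rests on exonic widths of 12835 bases for DCUN1D5 and 3152 for DCUN1D1. UBE2M, the E2 enzyme that works with RBX1, was 1.35-fold and 1.39-fold above UBE2F, which works with RNF7. CUL7 was 1.78-fold and 1.70-fold above CUL9. The ratio of CAND1 to CAND2 rests on the few counts of CAND2. Over the 8 pairs the smallest Benjamini-Hochberg adjusted p of the exact permutation tests was 0.571.

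**Figure D4:**
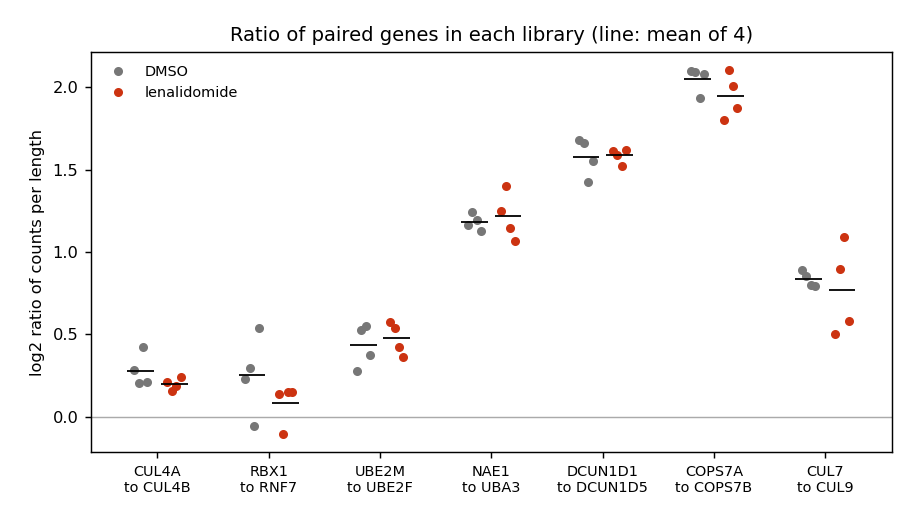
Log2 ratio of counts per length (vertical axis) of 7 gene pairs in each library, grey for DMSO and red for lenalidomide, with a line at the mean of 4. Libraries of the treatments overlap in every pair shown, and COPS7A to COPS7B has the highest ratio, 2.05 with DMSO and 1.95 with lenalidomide.

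Some libraries moved across many members at once. The median deviation of the 43 members from their mean over libraries was -0.066 (log2) in lenalidomide replicate 4 and -0.031 in lenalidomide replicate 1, and lay between -0.0032 and 0.018 in the other libraries. In lenalidomide replicate 4, which held the fewest counts, 31 members were below their own mean, and in lenalidomide replicate 1 there were 32. The median over all genes tested was 0.0057 and -0.0018 in these libraries. Without lenalidomide replicate 4 the median log2 fold change of the members was -0.0071, with 18 above 0 and 25 below.

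The members' differences also varied with gene length. All genes tested were put into 4 bins of near equal number by exonic width, the summed length of annotated exons, and their median log2 fold changes were -0.012, -0.0087, -0.00065 and 0.030 from the shortest to the longest bin. The members' medians in these bins were -0.070 (7 members, 1 above 0), -0.036 (11 members, 0 above 0), -0.024 (13 members, 5 above 0) and 0.018 (12 members, 8 above 0). RBX1, with an exonic width of 906 bases, and DCAF10, with 8008 bases, lie near the ends of this range. In lenalidomide replicate 4 the median deviation of all genes was -0.048 in the bin of the shortest genes and 0.075 in that of the longest. When a trend on exonic width was removed from each library, the members' median was -0.026, and RBX1, COPS7A and DCAF10 remained at log2 fold changes of -0.18, -0.097 and 0.18 with unadjusted p under 0.05. The part of gene length in the differences was not tested further.

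**Figure D5:**
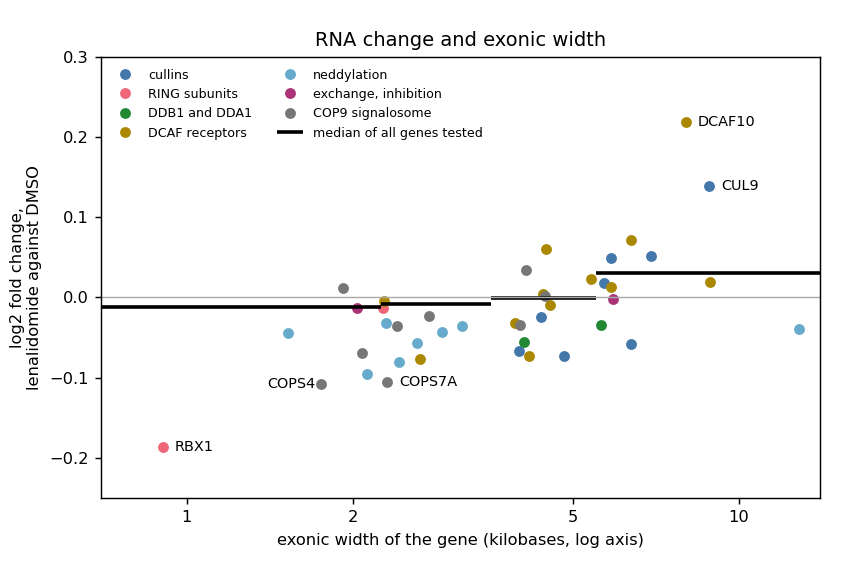
Log2 fold change of lenalidomide against DMSO (vertical axis) against exonic width in kilobases (log axis) for the 43 members tested, coloured by role, with black lines for the median of all genes tested in each of 4 width bins. The black lines run from -0.012 in the shortest to 0.030 in the longest bin, and RBX1 and DCAF10 lie at -0.19 and 0.22.

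Other genes of the same pathway were counted in the same fit. Of 15 further receptors of DDB1, CRBN included, 13 were tested, 10 lay above 0 and 3 below with a median log2 fold change of 0.058, and 0 passed an unadjusted p under 0.05. The largest difference among them was in DCAF4L1, 0.19 (SE 0.18), from 55 to 85 counts per library. Of 20 adaptors and receptors of the other cullins, all tested, 5 lay above 0 and 15 below with a median of -0.022, and 0 passed. KLHL20, a receptor of CUL3, differed most with -0.12 (SE 0.062). Of 6 further genes of neddylation and the signalosome, 3 lay above 0 and 3 below with a median of -0.00073, and 0 passed. DCUN1D2 differed most with 0.066 (SE 0.073).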

How the data were processed

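Total RNA of Hct116 cells was measured in 4 libraries with DMSO and 4 with 30 µM lenalidomide for 16 h. Libraries were made with a ScriptSeq kit, reads were converted with bcl2fastq 2.17 per the submitters' processing notes, aligned to hg19 with QuasR under default settings and quantified over UCSC known genes. The authors deposited raw counts per gene, with exonic widths and no normalization. A strand setting beyond the default is not given in the sources used here, so reads of overlapping genes on opposite strands may not be separated. Annotated exons of 25 members overlap a gene on the other strand, those of 11 overlap one on the same strand, and 14 have neither (GENCODE, GRCh37). Of the members given in full, CUL9, DDA1, DCAF13 and UBA3 also overlap a gene on the other strand, besides those named so above. The table holds 70 genes without a symbol, with 0.0223% of the counts, which were kept.

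Genes were kept by filterByExpr (minimum count 10, minimum total 15), scaled by TMM and tested with edgeR 4.0.16 (quasi-likelihood, R 4.3.3) on all 8 libraries, with Benjamini-Hochberg adjustment over 13925 genes. Library totals of 28218471 to 37473413 set the counting error, and standard errors include the spread between replicates. Intervals are at 95%. Single values and ratios (0.5 added to each count) were compared by exact permutation tests. The alternatives were RLE scaling, DESeq2 1.42.0, the likelihood ratio test, other filters, a replicate block, thinning to the smallest library, and leaving out each library. Removal of a trend on exonic width was chosen after seeing the data. The fits were tested on simulated counts.

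The members and lists were chosen with earlier results of these data known. For each role, the member with the largest change and that with the highest RPKM are given in full, as are members with an unadjusted p under 0.05 or without overlap, the core of the CUL4 ligase and COPS5. From each other list the gene with the largest change is named.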

Additional observations from a re-analysis of the deposited data

Results flagged for a closer look

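In 5 of 102 groups of 4 libraries, 1 library lay far from the other 3 by Dixon's test at the 95% level, where chance gives about 1 in 20, or 5.1 of 102. CUL1, the scaffold of SCF ligases, was at 195 CPM in lenalidomide replicate 3, and the other lenalidomide libraries were all at 189 CPM. CUL5 was at 136 CPM in DMSO replicate 1, with the others at 125 to 127 CPM. CUL5 was at 118 CPM in lenalidomide replicate 4, with the others at 125 to 126 CPM. The log2 ratio of RBX1 to RNF7 was -0.11 in lenalidomide replicate 2, with the others at 0.14 to 0.15. The log2 ratio of COPS7A to COPS7B was 1.93 in DMSO replicate 3, with the others at 2.08 to 2.10.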

How the results depend on the processing

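No alternative gave a member with an adjusted p under 0.05. The number of genes passing over the whole table, 2 in the quasi-likelihood test, was 12 by the likelihood ratio test, 9 by DESeq2 and 4 without a filter beyond 1 count, and when libraries were left out it was 2 without lenalidomide replicate 4 and 1 without any other. The causes were not tested. Correlations between DMSO and lenalidomide libraries were taken over all genes tested, after each gene's treatment mean was subtracted from its log2 CPM. Same-numbered libraries had correlations of 0.028, -0.024, 0.031 and 0.27, and differently numbered ones ran from -0.29 to 0.17. The value of 0.27, of the libraries numbered 4, was the highest of all. The numbers were not taken as pairs in the main test. With the replicate number as a block, 6 genes and 0 members passed. An unadjusted p under 0.05 was found for 2 members, beside 5.47% of all genes tested. Without 1 library, 2.19% (lenalidomide replicate 4 out) to 7.42% (lenalidomide replicate 2 out) of all genes tested had an unadjusted p under 0.05. The share with all libraries was 4.18%. Members with an unadjusted p under 0.05 numbered 0 to 3 when libraries were left out. There were 0 without DMSO replicate 2 or lenalidomide replicate 4, and 1 without DMSO replicate 1 or 4. RBX1 was not among them without DMSO replicates 2 or 4 or lenalidomide replicates 2 or 4, COPS7A was among them only without DMSO replicate 3 or lenalidomide replicate 2, and DCAF10 only without DMSO replicate 4 or lenalidomide replicates 1 or 2. UBA3 entered without DMSO replicate 3 (6.03% of all genes tested under 0.05) and CUL9 without lenalidomide replicate 3 (4.14%). COPS7A was also not among them in the block fit, by the likelihood ratio test or with no filter beyond 1 count. With 1 library left out, members without overlap numbered 1 to 4. There were 3 without DMSO replicate 3, 4 without DMSO replicate 4, and 2 without lenalidomide replicate 3 or 4. Fewer libraries overlap less readily, and the share over all genes tested was not counted in these settings. The members' median stayed below 0 in every alternative. For the 16 members given in full, 247 of 256 alternative values kept their direction. The others came from leaving out 1 library: CUL4B between -0.016 and 0.048, CAND1 between -0.050 and 0.024, GLMN between -0.057 and 0.041, and COPS5 between -0.068 and 0.013. For the pairs, the difference in log2 ratio (lenalidomide minus DMSO) changed sign for UBE2M to UBE2F (-0.0098 to 0.083), NAE1 to UBA3 (-0.026 to 0.086), DCUN1D1 to DCUN1D5 (-0.045 to 0.040) and CUL7 to CUL9 (-0.17 to 0.021). RBX1 to RNF7, -0.17 over all libraries, was -0.27 without DMSO replicate 3 (exact permutation p = 0.0286 before adjustment), -0.073 without DMSO replicate 4 (exact p = 0.514) and -0.11 without lenalidomide replicate 2 (exact p = 0.571). CAND2, with 1 to 6 counts per library, entered the test only with no filter beyond 1 count.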

Other observations

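RNA of the enzymes that work with cullin-RING ligases and of their substrates was also compared, since the ligases act on protein. Of 8 partners in ubiquitin transfer (the E2 enzymes CDC34, UBE2R2, UBE2G1 and UBE2D1 to UBE2D3, and the ARIH ligases that act with cullins), 3 had a log2 fold change above 0 and 5 below, with a median of -0.0044, and 0 had an unadjusted p under 0.05. UBE2R2 differed most with 0.12 (SE 0.069), and UBE2D3 had the highest level per length, 127 RPKM. Of 16 substrates of cullin-RING ligases, 10 lay above 0 and 6 below, with a median of 0.0076, and 0 had an unadjusted p under 0.05. NFKBIA, an inhibitor of NF-kB that is degraded through CUL1, differed most with -0.089 (SE 0.060, 95% interval -0.22 to 0.039).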
